A study of Mus musculus with 27 samples.

Results

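The genes of the interleukin 3 (IL3) receptor, of the Janus kinases (JAKs) and of their inhibitors were followed in Ba/F3, an IL3-dependent pro-B cell line of the mouse. The members are 10 genes taken by symbol out of 24000 in the count tables: the receptor chains Il3ra, Csf2rb, Csf2rb2 and Csf2ra, the kinases Jak1, Jak2, Jak3 and Tyk2, and the inhibitors Ptpn6 and Sh2b3. IL3 binds an alpha chain, encoded by Il3ra, which pairs with a signalling beta chain. Mice have a common beta chain (Csf2rb), shared by IL3, GM-CSF and IL5, and a beta chain used by IL3 alone (Csf2rb2). The beta chain carries JAK2, which phosphorylates the receptor and STAT5 once IL3 is bound. The phosphatase SHP-1 (Ptpn6) and the adaptor LNK (Sh2b3) dampen this signal.

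The line was kept in medium with IL3 at 1 ng/mL. Wild-type cells were taken after 6 h without IL3 (5 libraries), or after the same deprivation followed by 30 min of IL3 at 10 ng/mL (5 libraries). The other 17 libraries came from cells that carried a lentiviral short hairpin, were kept under puromycin for at least 1 week, and were all deprived and stimulated in the same way. Their hairpin had no target (n = 5) or was directed at STAT5A, STAT5B, LSD1 or HDAC3 (n = 3 each), so each hairpin group differs from wild type by the lentivirus and the selection as well. Libraries of a group are described as biological replicates in the labels, which name neither the number of hairpins per target nor whether a group comes from 1 transduction.

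Expression is given as CPM, the reads of a gene per M gene-assigned reads after scaling by TMM factors (edgeR's correction for library composition), and depth ranged from 5.48 to 33.8 M counted reads. The targeted mRNA fell to 32.7 to 38.0% of the no-target mean for Stat5a, 25.3 to 31.1% for Stat5b, 38.1 to 70.6% for Kdm1a (LSD1) and 34.1 to 63.7% for Hdac3. In 5 hairpin libraries (no target 1 and 3, LSD1 1, HDAC3 1 and 2), the share of reads assigned to no gene was 14.0 to 24.9%, while the other 22 had 8.70 to 11.99%, and these 5 were also shallow (5.48 to 7.53 M). For a pro-B line, B-lineage markers were sparse. A mean of at least 1 CPM was reached by 2 of 12 (Cd79a, median 47.3 CPM, and Cd79b, 28.6 CPM), while Pax5 and Ebf1 were at 0 in 25 libraries each. That level was also reached by 8 of 12 myeloid markers (139 to 1093 CPM summed), 5 of 8 mast cell and basophil markers (439 to 1567 CPM, with Kit at 0 in 24 libraries) and 3 of 8 T-lineage markers (3.67 to 15.2 CPM). Among these lists the unpaired edgeR fit called a higher Lyz2 with STAT5B (log2 fold change 1.23). It also called Cd14 with STAT5A (0.237, 0.419 and 42.7 CPM in replicates 1 to 3, against 0 to 0.592 with no target) and Cpa3 with LSD1 (18.6, 390.3 and 3.99 CPM, against 1.30 to 8.71), each led by 1 library. No marker was called there with HDAC3, with no target or with IL3 in wild type. The part of such markers in the results was not tested.

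The beta chain genes lie side by side on chromosome 15 and are near copies, which bears on how reads can be assigned to them. In GENCODE vM21 (GRCm38, the build named as mm10), Csf2rb covers chr15:78325752-78353847 on the plus strand and Csf2rb2 covers chr15:78282507-78305721 on the minus strand. Their coding sequences, 2688 and 2634 bases long, were identical at 95.24% of aligned bases, with 125 mismatches. These 90-base stretches of the coding sequence, read from the GENCODE transcripts, are the least alike of that length among those aligned without gaps, and capitals mark the bases at which they differ:
Csf2rb: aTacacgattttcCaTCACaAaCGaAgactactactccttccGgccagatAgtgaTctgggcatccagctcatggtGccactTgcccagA
Csf2rb2: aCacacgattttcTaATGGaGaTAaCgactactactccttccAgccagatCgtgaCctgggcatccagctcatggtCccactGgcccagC
The pair differs at 16 bases there. Elsewhere the same length is identical in both genes, as in this stretch, and a read lying wholly inside it could not be told apart:
Csf2rb and Csf2rb2: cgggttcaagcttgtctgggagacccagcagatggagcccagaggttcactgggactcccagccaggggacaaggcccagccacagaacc
Of all 50-base windows of the transcripts, 18.4% of those of Csf2rb also occur in Csf2rb2, and 19.0% the other way. For 100-base windows the shares were 6.96% and 7.20%. How reads with several matches were counted is not given in the sources used here, so the split between both genes is uncertain.

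Promoter windows of 300 bases (RefSeq, GRCm38.p6) were found for all members but Csf2rb and searched for TTCNNNGAA, the palindromic core bound by STAT5, which reads the same on both strands. Of these 9 windows that of Csf2rb2 held it, against 8.30% of 32851 windows of that length. The 120 bases before the Csf2rb2 start (chr15:78305722-78305841, minus strand) are shown because they hold that match, in capitals, at 15 to 7 bases upstream of the start:
Csf2rb2 promoter: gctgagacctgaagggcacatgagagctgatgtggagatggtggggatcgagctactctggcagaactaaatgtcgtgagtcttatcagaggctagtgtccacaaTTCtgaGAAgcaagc
A match describes these letters and is not a measured binding site.

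Per kb of exon, the beta chain mRNAs stood far above every other member. The median over 27 libraries was 629 CPM per kb for Csf2rb2 (267 to 1378) and 519.5 for Csf2rb (243 to 1088). The order of these genes depends on the length used, here the union of all exons (4740 bases for Csf2rb2, 7277 for Csf2rb). Their transcripts with the longest coding sequence are 4740 and 4900 bases long. Csf2rb had more reads than Csf2rb2 in each of the 27 libraries (ratio 1.02 to 1.53). Ptpn6 followed at 96.9 CPM per kb, then Il3ra at 35.02 and Jak2 at 32.5. Jak1 stood at 19.9, Tyk2 at 15.6, Jak3 at 10.9 and Sh2b3 at 4.18 CPM per kb. Jak2, the kinase of the beta chain, was thus the most abundant of the 4 kinase mRNAs by median. Together, both beta chain genes took 0.260 to 1.36% of all counted reads. In these bulk libraries, fewer cells with an mRNA and less of it per cell cannot be told apart.

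**Figure D1:**
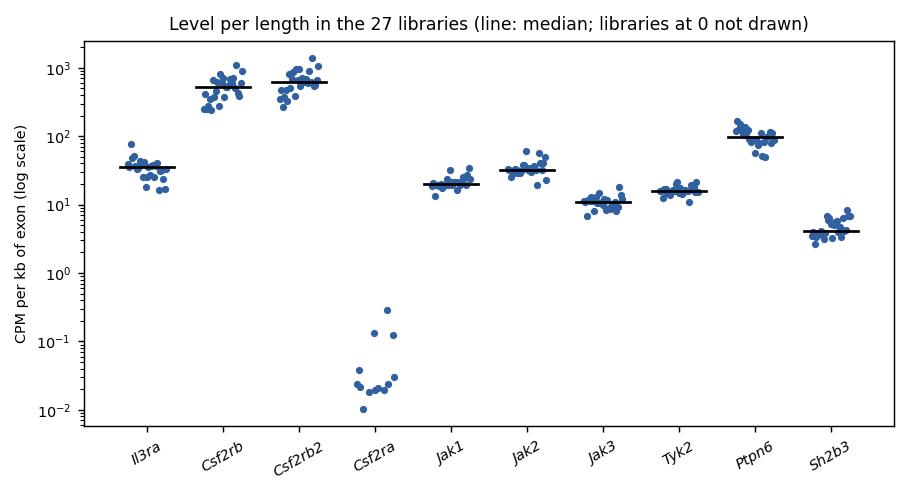
Level per kb of exon (CPM per kb, log axis) of the 10 members; each point is 1 of 27 libraries, the line is the median, and libraries at 0 are not drawn. Csf2rb2 and Csf2rb sit highest, with medians of 629 and 519.5, and Csf2ra is at or close to 0.

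The beta chain mRNAs rose with IL3 in wild-type cells when libraries were compared within their pairs. Csf2rb stood at 1844, 3040.03, 1791, 1985 and 2587 CPM in deprived replicates 1 to 5. With IL3 it stood at 1769, 4791, 2694, 3361 and 4519.9 CPM in the same order. Pair 1 was level, the other 4 pairs were higher with IL3, and the groups overlap.
Csf2rb2 stood at 1674, 2249, 1265, 1798 and 2260 CPM in deprived cells. With IL3 it stood at 1566, 3794, 2382, 3302 and 4078 CPM. The ratio of stimulated to deprived level was 0.960, 1.58, 1.50, 1.69 and 1.75 over the pairs for Csf2rb and 0.935, 1.69, 1.88, 1.84 and 1.80 for Csf2rb2. Both genes thus had the same pattern, with a level pair 1 and 4 pairs higher with IL3.

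Same-numbered wild-type libraries deviated together (5 of 5 pairs, r 0.375 to 0.716), so the fit of the 10 wild-type libraries with the pair as a block is given beside the unpaired fit of all 27. In edgeR's quasi-likelihood test with Benjamini-Hochberg adjustment over all genes, called at an adjusted p under 0.05, the unpaired fit gave a log2 fold change of 0.61 ± 0.31 (SE; adjusted p = 0.390) for Csf2rb and 0.71 ± 0.30 (adjusted p = 0.247) for Csf2rb2. The paired fit gave 0.56 ± 0.13 (adjusted p = 0.0250) and 0.67 ± 0.15 (adjusted p = 0.0215). The paired fit called 3 of the 9 members that passed the filter on low counts (Csf2rb, Csf2rb2 and Ptpn6) and 22.4% of all genes. The unpaired fit called 0 of 9 members and 3.82% of all genes; 1 member (Csf2rb2) and 1690 genes had an unadjusted p under 0.05, and DESeq2 also called no member. The paired calls depend on single pairs, a check chosen after seeing the data: without pair 2, 4 or 5 none of the 3 was called, without pair 3 only Ptpn6 was, and without pair 1 all 3 were. The adjusted p over these omissions ran from 0.00262 to 0.116 for Csf2rb and from 0.00101 to 0.102 for Csf2rb2. The number of genes called by the paired fit ran from 475 to 3454.

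**Figure D2:**
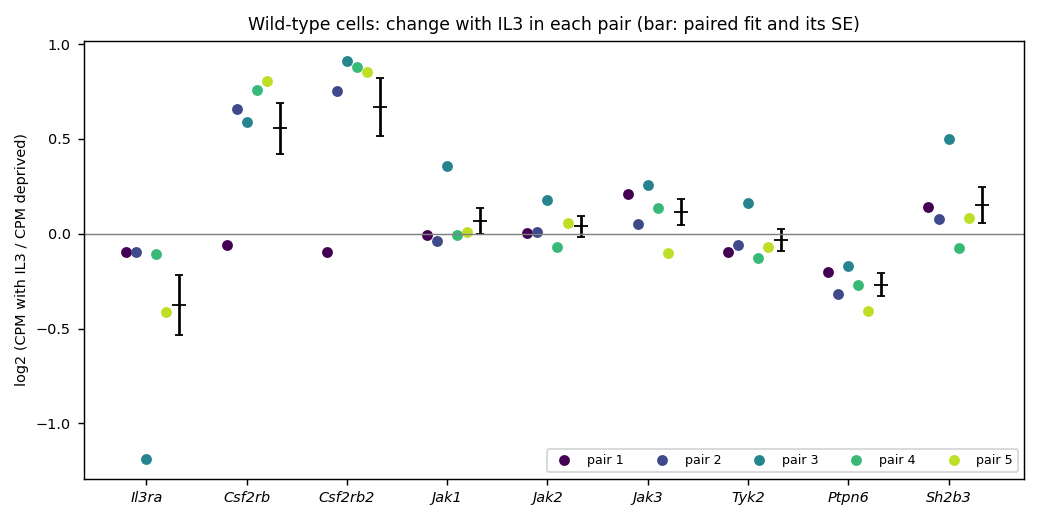
Log2 ratio of the TMM-scaled CPM with IL3 to that of the deprived library of the same number, for 9 members in 5 wild-type pairs (points); the bar is the paired edgeR fit with its SE. Csf2rb and Csf2rb2 lie above 0 in 4 of 5 pairs, and Ptpn6 and Il3ra below 0 in 5 of 5.

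Across all 27 libraries Csf2rb and Csf2rb2 tracked each other, with Pearson's r 0.96 and Spearman's rho 0.94 (permutation p = 1e-05 each, the smallest that 100000 permutations can give) and r 0.96 without the 2 libraries farthest from the median. On deviations from the group means r was 0.95. The libraries share their groups, and the genes share part of their sequence. The ratio of Csf2rb to Csf2rb2 reads lay between 1.02 and 1.53. In the 4 libraries with few multi-mapped reads (0.177 to 0.190 per counted read, against 0.2004 to 0.295 in the others), it was 1.26 to 1.52.

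**Figure D3:**
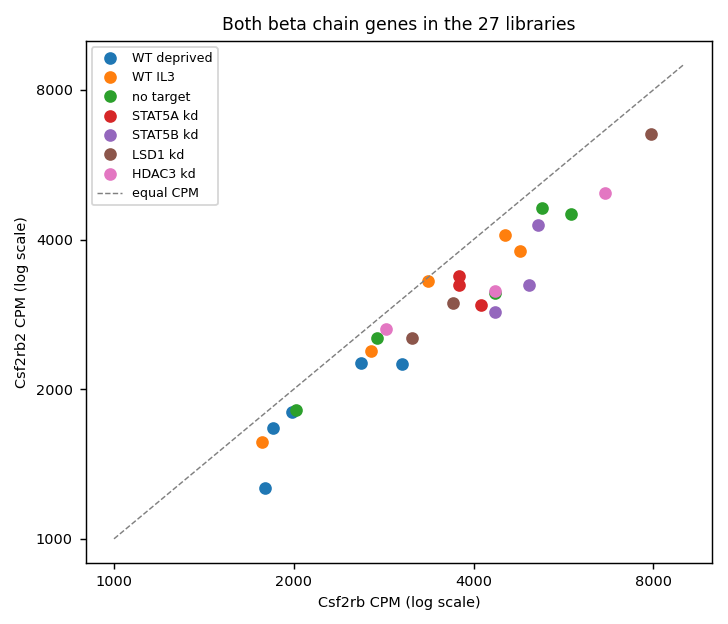
CPM of Csf2rb (x, log axis) and Csf2rb2 (y, log axis) in 27 libraries coloured by group (kd, knockdown); the dashed line marks equal CPM. All points follow a common line below equality, and the 5 deprived wild-type libraries lie between 1791 and 3040.03 CPM of Csf2rb.

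In hairpin cells the group means of Csf2rb lay between 3895 and 4925 CPM, with SDs from 193 to 2608 CPM. Csf2rb stood at 2015, 5825, 4336, 5204 and 2758 CPM with the no-target hairpin. It stood at 3785, 3781 and 4118 CPM in the STAT5A and 4945, 4344 and 5136 CPM in the STAT5B knockdown. In the LSD1 knockdown it stood at 3695, 7920.3 and 3158 CPM, and in the HDAC3 knockdown at 2854, 4346 and 6635 CPM. Every knockdown overlaps the no-target range, and the LSD1 knockdown holds the highest library of the series (replicate 2, which is also the one high in Cpa3). Csf2rb2 spanned 1814 to 4623 CPM with the no-target hairpin, 2950.3 to 3379 in the STAT5A, 2853 to 4269 in the STAT5B, 2533 to 6530.1 in the LSD1 and 2638 to 4961 in the HDAC3 knockdown. Neither gene passed the test in a knockdown or between no-target cells and stimulated wild type.

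Il3ra, the IL3-binding alpha chain, was highest in deprived wild-type cells. It stood at 115, 104, 228, 140.5 and 155 CPM in deprived replicates 1 to 5 and at 107, 97.1, 100.02, 131 and 116 CPM with IL3. The stimulated library was the lower in 5 of 5 pairs, with ratios of 0.934, 0.935, 0.439, 0.929 and 0.751, so that pair 3 differed most. The log2 fold change was -0.43 ± 0.24 (SE; adjusted p = 0.450) in the unpaired and -0.37 ± 0.16 (adjusted p = 0.114) in the paired edgeR fit, and neither passed the threshold. Without deprived replicate 3 the unpaired value was -0.22 (adjusted p = 0.971), and without pair 3 the paired value was -0.17 (0.0558). Il3ra stood at 75.5, 124, 54.2, 76.2 and 107 CPM with the no-target hairpin. It stood at 79.1, 108 and 114 CPM in the STAT5A, 75.0, 108 and 122 CPM in the STAT5B, 48.5, 90.7 and 94.7 CPM in the LSD1, and 71.2, 49.9 and 98.6 CPM in the HDAC3 knockdown. The low values lie in the 5 libraries with many reads outside genes, at 48.5 to 75.5 CPM against 75.0 to 124 CPM in the other 12 hairpin libraries. Over the 7 groups the adjusted p of Il3ra was 0.0464 with all libraries, 0.187 without these 5 and 0.123 with a term for their class.

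Csf2ra, the alpha chain of the GM-CSF receptor, was close to absent at this depth. It drew 21 reads over 418 M, with 14 libraries at 0 and at most 5 reads in a library (LSD1 replicate 1), and it did not pass the filter on low counts. A count of 0 allows 0.0887 to 0.547 CPM, as set by 3 counts per library (counting error only). The ligand gene Il3 itself had no read in any of the 27 libraries.

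The kinase mRNAs had stimulated to deprived ratios from 0.914 to 1.28. The ratio over the 5 pairs was 0.997, 0.974, 1.28, 0.996 and 1.01 for Jak1 and 1.00, 1.00, 1.13, 0.952 and 1.04 for Jak2. It was 1.16, 1.04, 1.197, 1.10 and 0.932 for Jak3, and 0.936, 0.960, 1.12, 0.914 and 0.952 for Tyk2. In each gene the highest ratio came from pair 3, whose deprived library was low. No kinase was called in wild type by either fit. In the paired fit, the SE of the log2 fold change was 0.055 for Jak2, 0.059 for Tyk2, 0.068 for Jak3 and 0.069 for Jak1.

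Among hairpin groups, Jak2 stood at 194, 190.05, 305, 175 and 160.1 CPM with no target, where replicate 3 is far above the rest. It stood at 171, 153 and 168 CPM in the STAT5A and at 185, 163 and 98.1 CPM in the STAT5B knockdown. It stood at 284, 207 and 163 CPM in the LSD1 and 201, 247 and 116 CPM in the HDAC3 knockdown. Wild-type cells spanned 129 to 168 CPM in either condition. Jak1 stood at 169.97, 138, 232, 157 and 138 CPM with no target and at 196, 249 and 168 CPM in the HDAC3 knockdown, against 119 to 157 CPM in the STAT5A, 141 to 154 CPM in the STAT5B and 139.7 to 184 CPM in the LSD1 knockdown. Jak3, the kinase of the common gamma chain receptors, spanned 52.1 to 79.6 CPM with no target and 64.0 to 97.1 CPM in the HDAC3 knockdown. Tyk2, which serves interferon and IL12-type receptors, spanned 103 to 145 CPM with no target and 75.5 to 110.08 CPM in the STAT5B knockdown. Each of these groups overlaps the no-target range. Jak3 in the STAT5B knockdown, at 46.1 to 51.96 CPM, lay just below all 5 no-target libraries (lowest 52.09 CPM). How often groups separate in this way over all genes was not counted.

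Jak1, Jak2 and Jak3 also moved with the library class. In the 5 libraries with many reads outside genes Jak1 stood at 169.97 to 249 CPM, against 119 to 176 CPM in the other 12 hairpin libraries. Jak2 stood at 194 to 305 CPM against 98.1 to 207 CPM, and Jak3 at 58.3 to 97.1 CPM against 43.7 to 64.0 CPM. Tyk2 stood at 105 to 148 CPM against 75.5 to 137 CPM, which largely overlap. Without these 5 libraries the log2 fold change of Jak2 between no-target cells and stimulated wild type was 0.16, against 0.39 with them, and that of Jak3 in the HDAC3 knockdown 0.15 against 0.33. None of these passed the test. For Jak1, which passed the test over all 7 groups (adjusted p = 0.0463), the adjusted p was 0.558 without these 5 libraries.

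**Figure D4:**
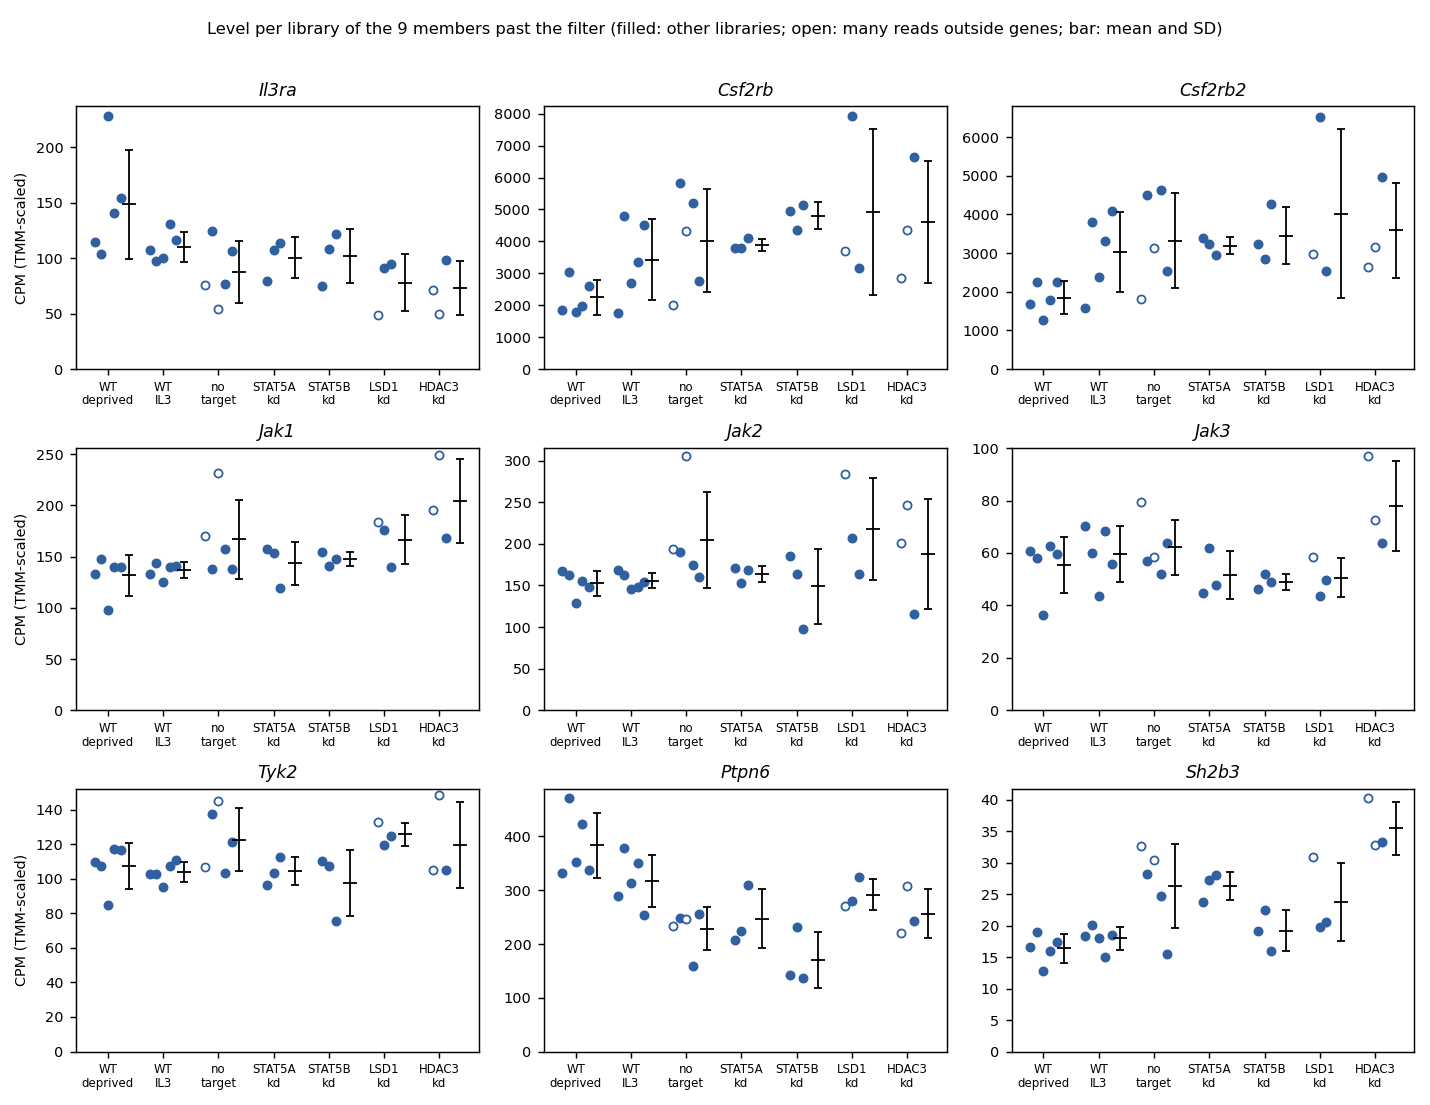
TMM-scaled CPM per library (points) of the 9 members past the filter, by group (kd, knockdown), with mean and SD (bar); open points are the 5 libraries with many reads outside genes. Every hairpin group has a lower mean of Ptpn6 and a higher mean of Sh2b3 than wild type. Single libraries overlap: for Ptpn6 11 of 17 hairpin libraries lie below all stimulated wild-type ones, and for Sh2b3 13 of 17 lie above them. Open points are low for Il3ra and high for Jak1.

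The inhibitors had the lowest adjusted p of the members over the 7 groups, Ptpn6 with lower and Sh2b3 with higher means in hairpin cells than in wild type. Ptpn6 encodes SHP-1, a phosphatase that acts on the beta chain and JAKs. It stood at 332, 471, 353, 423 and 338 CPM in deprived wild-type replicates 1 to 5 and at 289, 378, 314, 350.2 and 255 CPM with IL3. The stimulated library was the lower in 5 of 5 pairs (ratios 0.871, 0.804, 0.888, 0.828 and 0.754), although the groups overlap. The log2 fold change was -0.27 ± 0.17 (SE; adjusted p = 0.505) in the unpaired and -0.27 ± 0.059 (adjusted p = 0.0184) in the paired edgeR fit, where it ran from 0.00316 to 0.110 when 1 pair was left out.

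In hairpin cells Ptpn6 stood at 234, 249, 246, 159 and 256 CPM with no target, at 208, 224 and 310.2 CPM in the STAT5A and at 143, 231 and 137 CPM in the STAT5B knockdown. It stood at 272, 279.5 and 324 CPM in the LSD1 and at 219.6, 307 and 243 CPM in the HDAC3 knockdown. All 3 LSD1 libraries lay above all 5 no-target libraries (272 against 256 CPM at the nearest). The log2 fold change of LSD1 against no target was 0.35 (adjusted p = 0.830 in the unpaired edgeR fit), which did not pass. All 17 hairpin libraries lay below all 5 deprived wild-type libraries, and 11 of 17 lay below all stimulated ones. The STAT5B knockdown held the lowest values of the series, with a log2 fold change against no target of -0.42 (adjusted p = 0.302), which did not pass. Over omissions of 1 library this fold change ran from -0.71, without STAT5B replicate 2, to -0.29.

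Sh2b3 encodes LNK, which binds JAK2 and restrains cytokine receptor signalling. It stood at 16.6, 19.0, 12.8, 15.9 and 17.4 CPM in deprived and 18.3, 20.1, 18.0, 15.1 and 18.5 CPM in stimulated wild-type cells. These groups overlap. With no target it stood at 32.6, 28.2, 30.4, 24.7 and 15.4 CPM, and in the HDAC3 knockdown at 40.3, 32.8 and 33.2 CPM. It stood at 23.8, 27.2 and 28.0 CPM in the STAT5A, 19.1, 22.5 and 16.0 CPM in the STAT5B, and 30.9, 19.7 and 20.5 CPM in the LSD1 knockdown. Thus 13 of 17 hairpin libraries lay above all stimulated wild-type libraries. The 3 libraries of the HDAC3 knockdown lay above all 5 no-target libraries, by 32.8 against 32.6 CPM at the nearest, and 2 of the 3 are in the class with many reads outside genes. In that class Sh2b3 stood at 30.4 to 40.3 CPM, against 15.4 to 33.2 CPM in the other 12 hairpin libraries.

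Over all 7 groups, edgeR's quasi-likelihood F test called 4 of 9 members, where it called 29% of all genes. These were Sh2b3 (adjusted p = 0.00205), Ptpn6 (0.00283), Jak1 (0.0463) and Il3ra (0.0464). The calls of Ptpn6 and Sh2b3 held in each of 27 fits without 1 library, without the 5 libraries and with a term for their class (adjusted p = 0.00848 and 0.0199 without the 5). The calls of Il3ra and Jak1 ended in 19 and 20 of the 27 omissions, with an adjusted p up to 0.158 and 0.161, and without the 5 libraries (0.187 for Il3ra). Csf2rb did not pass with all libraries (0.104) and passed without the 5 (0.0447) and with the class term (0.0337). Csf2rb2 did not pass with all libraries (0.126) or without the 5 (0.0611) and passed with the class term (0.0317). The fit with the class term thus called Csf2rb, Csf2rb2, Ptpn6 and Sh2b3, where it called 2376 genes. In the order of the 7 group means, all 6 pairs of neighbours overlap for each member except Sh2b3, where 5 of 6 do. How often neighbours overlap over all genes was not counted, so this does not set Sh2b3 apart.

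No single knockdown moved a member past the threshold against the no-target hairpin. The tests called 0 of 9 members where they called 0.0663% of all genes in the STAT5A, 0.34% in the STAT5B, 0.166% in the LSD1 and 0.0248% in the HDAC3 knockdown. At an unadjusted p under 0.05 there were 0, 3, 0 and 1 members, against 1016, 1925, 810 and 687 genes, and DESeq2 also called 0 members in each. By adjusted p, the log2 fold changes nearest to a call were all with STAT5B: -0.44 for Sh2b3 (adjusted p = 0.291), -0.33 for Tyk2 (0.294), -0.42 for Ptpn6 (0.302), -0.46 for Jak2 (0.324) and -0.34 for Jak3 (0.362). Without the 5 libraries, those of Sh2b3 and Jak2 were -0.24 and -0.23. Tyk2 was -0.17 and Jak2 -0.23 without STAT5B replicate 3, and Jak2 was -0.27 without no-target replicate 3. Sh2b3 had 0.44 with HDAC3 (0.861). Its unadjusted p there, 0.0344, was the smallest of any member in a knockdown, against 0.0353 for Sh2b3 with STAT5B. The SE of the members' log2 fold changes was 0.147 to 0.355 over these comparisons, so that shifts of that size were not resolved.

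**Figure D5:**
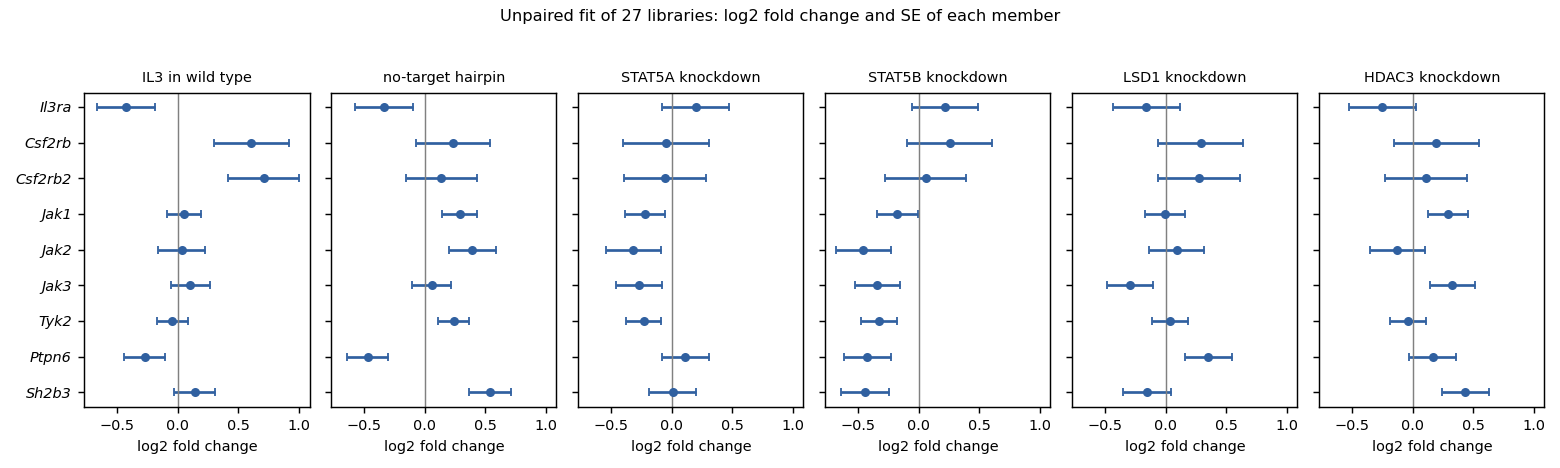
Log2 fold change with SE of 9 members in the 6 comparisons of the unpaired edgeR fit of 27 libraries; knockdowns are set against the no-target hairpin and no-target cells against stimulated wild type. No value passed an adjusted p of 0.05, and the beta chains have the widest error bars.

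No-target cells against stimulated wild type likewise gave 0 of 9 members and 0% of genes called by edgeR, with 2 members and 2042 genes at an unadjusted p under 0.05. DESeq2 called 0 members and 122 genes there. The log2 fold changes were 0.54 for Sh2b3 (adjusted p = 0.215) and -0.47 for Ptpn6 (adjusted p = 0.225). Since the mean of every hairpin group lay above that of stimulated wild type for Sh2b3 and below it for Ptpn6, the mean of the 5 hairpin groups was set against wild type, a comparison chosen after these values were seen. Against stimulated wild type it called 0 of 9 members and 0.729% of genes, with 3 members and 2286 genes at an unadjusted p under 0.05. Sh2b3 had a log2 fold change of 0.51 ± 0.14 (SE; adjusted p = 0.0786) and Ptpn6 of -0.43 ± 0.13 (adjusted p = 0.106). DESeq2 called Sh2b3 (adjusted p = 0.0129). In 22 edgeR fits without 1 library, Sh2b3 was called in 1, without no-target replicate 5 (0.0300), and its adjusted p ran up to 0.268. Ptpn6 was called in 1 of 22, without STAT5B replicate 2 (0.0447), with an adjusted p up to 0.319. For Sh2b3 the log2 fold change was 0.40 (0.115) without the 5 libraries and 0.43 (0.213) with the replicate block.

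Against deprived wild type, from which the hairpin groups differ by IL3, lentivirus and selection together, 6 of 9 members and 39.2% of genes were called. Csf2rb rose by 0.98 on the log2 scale (adjusted p = 0.00662), Csf2rb2 by 0.92 (0.00719) and Sh2b3 by 0.65 (0.00156). Il3ra fell by 0.76 (0.00320) and Ptpn6 by 0.70 (0.000345). Jak1 rose by 0.32 (0.0367), a call that ended without the 5 libraries (0.101) and in 6 of 22 omissions of 1 library: deprived wild type 3, STAT5A 1 and 2, STAT5B 1, HDAC3 2 and LSD1 1 (up to 0.146). IL3 and the hairpin cannot be told apart here, and both comparisons share the hairpin libraries. Markers of other cell types were called there too, namely S100a9 (3.04), Cpa3 (2.45), Cd8a (1.25) and Ms4a2 (1.05), and their part in the result was not tested.

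Among the other genes of the pathway, feedback inhibitors had the largest responses to IL3 in wild type. In the SOCS family, whose members block JAKs and receptors, 3 of 8 rose in the unpaired fit: Socs1 (log2 fold change 7.27), Socs3 (5.93) and Cish (4.83). The median of the family was 0.82, against -0.02 over all genes. Of 20 other JAK-coupled receptor chains tested 1 rose, Il4ra (2.22). None of 6 STAT factors, 16 genes listed as other inhibitors or 22 adaptors and proximal kinases was called in that fit (medians 0.02, 0.11 and 0.14). The list of other inhibitors includes Sh2b1 and Ptpn11, and whether each of its genes dampens the signal was not tested. The paired fit, which called 22.4% of all genes, called 8 of 8 SOCS genes, all higher. It called 3 of 6 STAT factors (Stat3 higher at 0.35, Stat2 and Stat5a lower at -0.46 and -0.24) and 3 of 16 other inhibitors (Rnf41 and Ptpn2 higher, Dok1 lower). Of 22 adaptors and proximal kinases 4 rose and 1 fell, and of 17 other receptor chains 2 rose and 2 fell. Of the markers it called Gata2 (-0.53), Cebpe (-0.54), Cd79b (-0.40) and Cd8a (0.96). In the knockdowns, the calls among these lists, apart from the markers Cd14, Lyz2 and Cpa3 given above, were the targets Stat5a (-1.48) and Stat5b (-1.81). In the mean of the 5 hairpin groups against stimulated wild type, Stat5a, which is itself the target in 1 of these groups, fell (-0.62), so that part of this fall is set by the design, and Pik3cd, a phosphoinositide 3-kinase subunit, rose (0.64). Against deprived wild type, where 39.2% of all genes were called, 8 of 8 SOCS genes rose, and of the 16 other inhibitors 7 rose and Dok1, an adaptor, fell (-0.56). Of 22 adaptors and proximal kinases 9 rose and 2 fell, of 20 other receptor chains 2 rose and 1 fell, and of 6 STAT factors 1 rose and 2 fell.

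The genes whose levels were most like each member over the 27 libraries, among 9207 searched, are given by Pearson's r as a description, since the libraries share groups, depth and class. For Il3ra this was Rpl8, a ribosomal protein gene (0.97). For the beta chains these were Glipr1 (0.89 with Csf2rb) and Furin, a proprotein convertase gene (0.91 with Csf2rb2 and 0.88 with Csf2rb). Gna13 was closest to Jak1 (0.95), Rmnd5a to Jak2 (0.93), Zc3h18 to Jak3 (0.82) and Add1 to Tyk2 (0.82). Pcmt1 was closest to Ptpn6 (0.81) and Mapk1ip1l to Sh2b3 (0.86).

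Some members share exons with another gene, and whether counting used the strand is not given in the sources used here. Jak3 (chr8:71676296-71690575, plus strand) shares 7.55% of its exon bases with Insl3 on the same strand. Tyk2 (chr9:21104068-21131243, minus strand) shares 8.07% with 1700084C06Rik, Ptpn6 (chr6:124720707-124738714, minus strand) 6.96% with Gm20531, Sh2b3 (chr5:121815488-121837646, minus strand) 2.06% with Atxn2 and Il3ra (chr14:14346275-14356011, plus strand) 1.55% with Gm48860, each on the opposite strand. Jak1 lies at chr4:101152367-101265282 on the minus strand, Jak2 at chr19:29251828-29313080 on the plus strand and Csf2ra at chr19:61223957-61228429 on the minus strand.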

How the data were processed

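PolyA RNA of 27 Ba/F3 libraries in 7 groups was sequenced by the authors from TruSeq RNA v2 libraries, per the labels' protocols. The deposited files hold raw counts of reads per gene symbol. Per the submitters' processing notes, Trimmomatic 0.30, TopHat2 2.0.10, HTSeq 0.5.4p5, DESeq2 1.2 and mm10 were used; their order, the counting mode, strand and annotation are not given in the sources used here. The 5 summary lines per file were left out of library sizes.

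All libraries entered 1 edgeR 4.0.16 quasi-likelihood fit (R 4.3.3, limma 3.58.1; robust, TMM factors, filterByExpr, 12073 genes), with Benjamini-Hochberg adjustment over all genes and a threshold of 0.05. In the wild-type comparison, equal replicate numbers pair the libraries by the correlation of their deviations (5 of 5 pairs over 0.1; at most 2 of 3 elsewhere). Levels per kb use the GENCODE vM21 exon union. The fit was tested on simulated data. DESeq2 1.42.0 and other settings were alternatives. P-values set differences between groups against the spread between libraries. The labels do not give the number of hairpins or transductions per group, so the spread between these is not covered. No 2 replicates were copies (42 pairs, chi-square per degree of freedom 10.35 to 163.5). Members, lists and tests were chosen with earlier results of these data known; the named genes are the 10 members, the 4 targets, up to 4 called genes per list and comparison, and the 3 most like genes per member, of which the closest are printed.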

Additional observations from a re-analysis of the deposited data

Results flagged for a closer look

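Of 27 sets of 5 libraries of 1 member and group, 4 held a library far from the others by Dixon's test. For independent normal values the test flags about 1 in 20. The sets share their libraries and the rate over all genes was not counted, so the count is given as a description. Jak1 and Jak3 were low in deprived wild-type replicate 3, at 97.4 CPM (the others 133 to 148) and 36.5 CPM (58.0 to 62.5). Jak2 was high in no-target replicate 3, a library with many reads outside genes, at 305 CPM (160.1 to 194). Ptpn6 was low in no-target replicate 4, at 159 CPM (234 to 256).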

How the results depend on the processing

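With no filter on low counts, genes called were 4 in the STAT5A and 18 in the STAT5B knockdown. That setting called 50 genes in the hairpin groups against stimulated wild type, and 2475 genes and 2 members over the 7 groups. DESeq2 called 698 genes in wild type, 32, 163, 64 and 10 in the STAT5A, STAT5B, LSD1 and HDAC3 knockdowns, 122 with the no-target hairpin, 515 (1 member) in the hairpin groups against stimulated wild type, and 5277 (7 members) over the 7 groups. Fits of only the groups compared called 1170 genes in wild type, 0, 1, 0 and 0 in those knockdowns and 26 with the no-target hairpin. The replicate block called 2504 genes and 3 members in wild type, 0 genes in each knockdown and 4 with the no-target hairpin. It called 12 in the hairpin groups against stimulated wild type, and 3001 genes and 2 members over the 7 groups. Outside wild type equal numbers do not pair the libraries.

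Other settings were chosen after seeing the data, as were the list counts of the paired fit. Without the 5 libraries rich in reads assigned to no gene, 876 genes were called in wild type, 3, 11, 6 and 8 in the knockdowns, 181 in the hairpin groups against stimulated wild type and 2041 over the 7 groups. With a term for their class, the counts were 939 in wild type, 5 and 12 in the STAT5A and STAT5B knockdowns, 2 with the no-target hairpin and 195 in the hairpin groups against stimulated wild type. The cause of these moves was not tested.

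Leaving out 1 library at a time gave 298 to 596 genes in wild type, 2 to 13, 5 to 171, 5 to 57 and 0 to 9 in the knockdowns, 0 to 0 with the no-target hairpin, and 0 to 0 members in each of these. It gave 2 to 346 genes and 0 to 1 members in the hairpin groups against stimulated wild type, 2923 to 5574 genes and 5 to 6 members against deprived wild type, and 2333 to 5358 genes and 2 to 4 members over the 7 groups. Signs were followed over all alternative runs only for members' log2 fold changes with an unadjusted p under 0.1 or called by the paired fit. None of these changed sign. Some smaller values, drawn in the plot of fold changes by comparison, did so with the replicate block. With STAT5A these were Csf2rb, Csf2rb2, Ptpn6 (0.113 to -0.011) and Sh2b3 (0.007 to -0.223). With LSD1 they were Jak2 (0.089 to -0.064) and Tyk2. The replicate block changed no other call of a member than those of Csf2rb, Csf2rb2 and Ptpn6 in wild type, Il3ra and Jak1 over the 7 groups (0.0657 and 0.0836) and Jak1 in the hairpin groups against deprived wild type (0.0682). Depth limits Csf2ra.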
